A study of Saccharomyces cerevisiae with 14 samples.

Results

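The galactose genes of budding yeast are GAL1 (YBR020W), GAL2 (YLR081W), GAL3 (YDR009W), GAL4 (YPL248C), GAL7 (YBR018C), GAL10 (YBR019C) and GAL80 (YML051W), and they are described here in 11 RNASeq libraries. They were chosen by systematic name, and all 7 have a row among the 7122 genes of the deposited table. The libraries come from 4 chaperone-enriched strains (ChES), each overexpressing (oe) a chaperone from a plasmid in the wild-type background Y258, which is derived from S288C. There were 2 libraries of oe EGD2 and 3 for every other strain, namely oe TCP1, oe LHS1 and oe SSC1. SSC1 encodes the Hsp70 of mitochondria, LHS1 an Hsp70 of the endoplasmic reticulum, EGD2 part of the complex that meets new polypeptides at the ribosome and TCP1 a subunit of the cytosolic chaperonin. All 4 strains were purchased, carry the URA3 plasmid and grew on -URA medium with 2% glucose at 30 °C. The labels describe exponential growth in that medium. The study's methods add that the plasmids were induced with 2% galactose, after a change to YPD that lacked glucose, and that cells were taken after the diauxic shift. The levels of the galactose genes are set beside both statements. Strains are set against each other, since the control's 3 libraries are not analysed here. Nothing in the sources used here says which steps the libraries of a strain shared beyond their being called biological triplicates, and p-values measure the spread between these libraries.

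Galactose enters the cell through the permease Gal2 and is turned into glucose 1-phosphate by the Leloir enzymes, the kinase Gal1, the uridylyltransferase Gal7 and the bifunctional epimerase Gal10. The activator Gal4 binds upstream of these genes and is held inactive by Gal80 until Gal3, with galactose and ATP, relieves that block. In glucose the pathway is repressed, in part through Mig1, and when yeast is moved to galactose GAL1, GAL2, GAL7 and GAL10 are known to become some of the most strongly transcribed genes of the cell, while GAL3 and GAL80 are induced less and GAL4 is known as a weakly expressed gene.

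GAL7, GAL10 and GAL1 lie side by side on chromosome II, and the 668 bases between GAL10 and GAL1 serve both genes. The coding sequences in the R64 assembly, the same sequence as sacCer3, are at chrII:274427-275527 (minus strand) for GAL7, chrII:276253-278352 (minus) for GAL10 and chrII:279021-280607 (plus) for GAL1. GAL2 is at chrXII:290212-291936 (plus), GAL3 at chrIV:463434-464996 (plus), GAL4 at chrXVI:79711-82356 (minus) and GAL80 at chrXIII:171594-172901 (plus). The stretch between GAL10 and GAL1 that holds their shared Gal4 motifs, chrII:278548-278641 on the plus strand, is shown because it is the best known regulatory sequence of the pathway. Capitals mark the CGG and CCG ends of each motif, which was searched as CGGNNNNNNNNNNNCCG, a string that reads the same on both strands.
GAL1 and GAL10: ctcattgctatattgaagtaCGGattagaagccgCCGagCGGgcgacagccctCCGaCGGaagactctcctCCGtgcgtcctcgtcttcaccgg
The motif was counted in the 600 bases before each start codon. Among 5999 protein-coding genes with a full window, 3.5% held at least 1 motif and 0.117% (7 genes) held 2 or more. All 7 galactose genes held it, with 3 copies before GAL1 and the same 3 before GAL10, 5 before GAL2 and 1 each before GAL3, GAL4, GAL7 and GAL80.

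A motif of each remaining gene is shown, with 6 bases on either side and read on the gene's own strand, so that the sites can be set beside the levels below. For GAL2, the motif nearest to the start of its coding sequence is given. It overlaps the motif before it, at chrXII:289879-289895. The positions are chrII:275703-275719 for GAL7, chrXII:289884-289900 for GAL2, chrXIII:171422-171438 for GAL80, chrIV:463146-463162 for GAL3 and chrXVI:82810-82826 for GAL4.
GAL7: agcgctCGGacaactgttgaCCGtgatcc
GAL2: tcggggCGGatcactccgaaCCGagatta
GAL80: atttacCGGcgcactctcgcCCGaacgac
GAL3: cacgttCGGtccactgtgtgCCGaacatg
GAL4: gacagaCGGtggcgcaggatCCGgtttaa
The 11 spacer bases differed between the sites, and only the motif ends and length were required to match. A match is a string in the reference and was not measured as binding in these libraries.

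The libraries held 10127206 to 20286329 reads (median 14090055), and the values below are normalized counts, that is reads divided by the library's DESeq2 size factor. The plasmid gene was checked first. LHS1 stood at 23647, 56679 and 60337 in the oe LHS1 libraries and at most at 2211 in the others, and TCP1 at 22042, 47002 and 26906 in oe TCP1 and at most at 2577 elsewhere. EGD2 was 24039 and 17746 in oe EGD2 against 6127 to 16374 in the other strains. SSC1 exceeded all other strains in 1 of the 3 libraries labelled oe SSC1 (30045, 82518 and 11336 against 14940 to 32390), so this strain is named by its label. The first principal component of all genes held 57.2% of the variance and libraries of the same strain lay apart on it, except for replicates 2 and 3 of oe LHS1 (-0.442 and -0.437). None of the 50-base windows of the 7 coding sequences occurred elsewhere in the genome. Counting did not use strand, however, and the annotation places the noncoding RNA YNCB0008W over 73.7% of GAL10 on the opposite strand and over all of GAL1 on the same strand, and YNCP0002W over all of GAL4 on the opposite strand. Reads of these RNAs, which have no row of their own, cannot be told apart from reads of the 3 genes.

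All members but GAL80 were weakly expressed in all 4 strains, and GAL80 itself stood in the middle of the genome's range. Per kilobase of coding length, the median normalized count over the 11 libraries was 920 for GAL80, 315 for GAL4, 227 for GAL10, 206 for GAL1, 194 for GAL3, 170.2 for GAL7 and 132 for GAL2, while the median gene among 5835 protein-coding genes had 771. On this scale 43.9% of genes stood above GAL80, 84.9% above GAL4 and 90.1% to 93.7% above the other 5. The highest rank that the permease or any Leloir enzyme reached in any library was 4107 of 5835, by GAL1 in replicate 2 labelled oe SSC1. In glucose, the medium of the labels, the pathway is repressed. In galactose, the inducer of the methods, GAL1, GAL2, GAL7 and GAL10 are known to be among the most strongly transcribed genes. At their medians here, 90.1% to 93.7% of genes stood above them. Which sugar the sequenced cultures held was not tested. Together the 7 genes took 1851 to 6252 reads per library. Their share of a library's reads was lowest in replicate 3 of oe TCP1, at 0.0183% (95% Clopper-Pearson interval 0.0175 to 0.0191). It was highest in replicate 2 labelled oe SSC1, at 0.0377% of 4970 reads in the 7 genes (0.0367 to 0.0388). These intervals cover counting error only. In a bulk culture, fewer cells with a transcript and less of it per cell cannot be told apart.

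**Figure D1:**
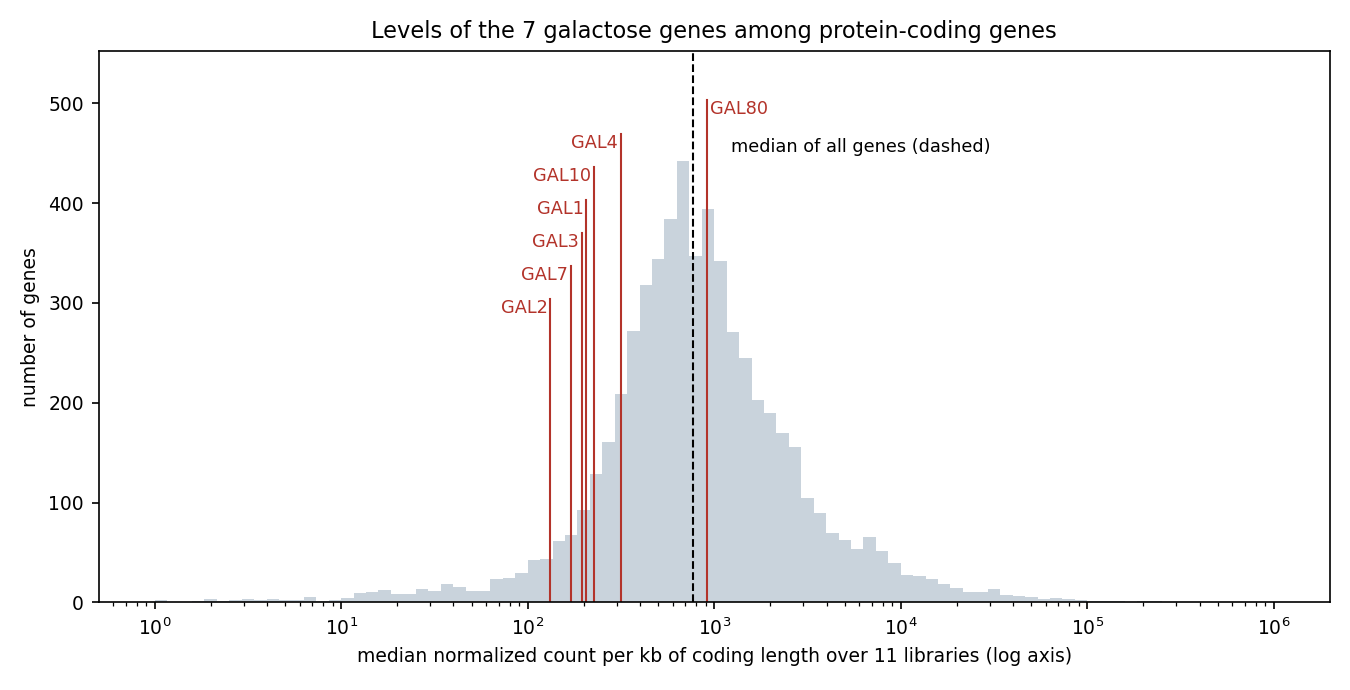
Histogram of the median normalized count per kilobase of coding length over 11 libraries (log axis) for 5835 protein-coding genes, with a red line for each galactose gene and a dashed line at the median gene. GAL80, at 920, is right of the median of 771, and the other 6 genes lie between 132 and 315, in the lower part of the distribution.

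GAL1, the galactokinase, had normalized counts of 538, 329 and 237 in replicates 1 to 3 of oe TCP1, 293 and 422 in replicates 1 and 2 of oe EGD2, 326, 321 and 318 in oe LHS1, and 309, 836 and 432 with the label oe SSC1. The 3 oe LHS1 libraries were nearly equal (322 ± 3.98, SD, n = 3), whereas the libraries labelled oe SSC1 spanned more than the other strains together (526 ± 276, SD, n = 3). The whole range was 3.53-fold. Replicate 2 labelled oe SSC1 alone made the top of it, and all other libraries lay between 237 and 538.

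GAL7, the uridylyltransferase, was the most variable member. Its normalized counts were 417, 187 and 42.0 in oe TCP1, 161 and 171 in oe EGD2, 248, 89.0 and 68.1 in oe LHS1, and 203, 284 and 255 in those labelled oe SSC1. Both the highest and the lowest library belonged to oe TCP1, a 9.92-fold range inside which every other library fell. The lowest rested on 30 reads. The SD within strains was 1.04 on the log2 scale, above that of 88.9% of the 6592 genes tested, whose median was 0.448.

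GAL10, the epimerase that is read away from GAL1 out of the same intergenic region, had normalized counts of 624, 598 and 167 in oe TCP1, 350.35 and 705 in oe EGD2, 476, 245 and 279 in oe LHS1, and 345, 605 and 733 in those labelled oe SSC1. Replicates 2 and 3 of oe LHS1 and replicate 3 of oe TCP1 were the 3 lowest for GAL10 as for GAL7. These 3 libraries were also the shallowest of the series. The range was 4.40-fold, with a within-strain SD of 0.754 (log2).

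GAL2, the permease, had the lowest median per kilobase, although GAL7 was lower in 6 of 11 libraries. Its normalized counts were 328, 226 and 206 in oe TCP1, 449 and 227 in oe EGD2, 429, 180.3 and 178 in oe LHS1, and 378, 327 and 126 in those labelled oe SSC1. Replicate 1 was the highest library in each of the 4 strains, which held for no other member. The labels do not say what the libraries with the same number share. The lowest to highest range was 3.55-fold.

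Of the regulators, GAL80, the repressor, was the steadiest member. Its normalized counts were 1214, 1238 and 1158 in oe TCP1, 1204 and 1203 in oe EGD2, 1050.4, 1285 and 1311 in oe LHS1, and 1094, 909 and 1219 in those labelled oe SSC1. All 11 libraries lay within 1.44-fold, and the within-strain SD of 0.151 (log2) was below that of all but 2.6% of the genes tested. GAL80 thus varied least and GAL7 most. Both hold a single match to the Gal4 string searched in the window, which is not a count of bound sites.

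GAL4, the activator, had normalized counts of 834, 1131 and 556 in oe TCP1, 637 and 1213 in oe EGD2, 885, 697 and 638 in oe LHS1, and 715, 1295 and 837 in those labelled oe SSC1. Replicate 2 was the highest in 3 of the 4 strains, and in oe LHS1 it was replicate 1. GAL3, the galactose sensor, had normalized counts of 342, 290.5 and 227 in oe TCP1, 479.8 and 304 in oe EGD2, 609.65, 297 and 276 in oe LHS1, and 423, 577 and 241 in those labelled oe SSC1. Its 4 highest libraries were the 3 highest of GAL2 and replicate 2 labelled oe SSC1. The ranges were 2.33-fold for GAL4 and 2.69-fold for GAL3. Replicate 3 of oe TCP1, the library with the fewest reads, was the lowest of the 11 for GAL1, GAL3, GAL4, GAL7 and GAL10.

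**Figure D2:**
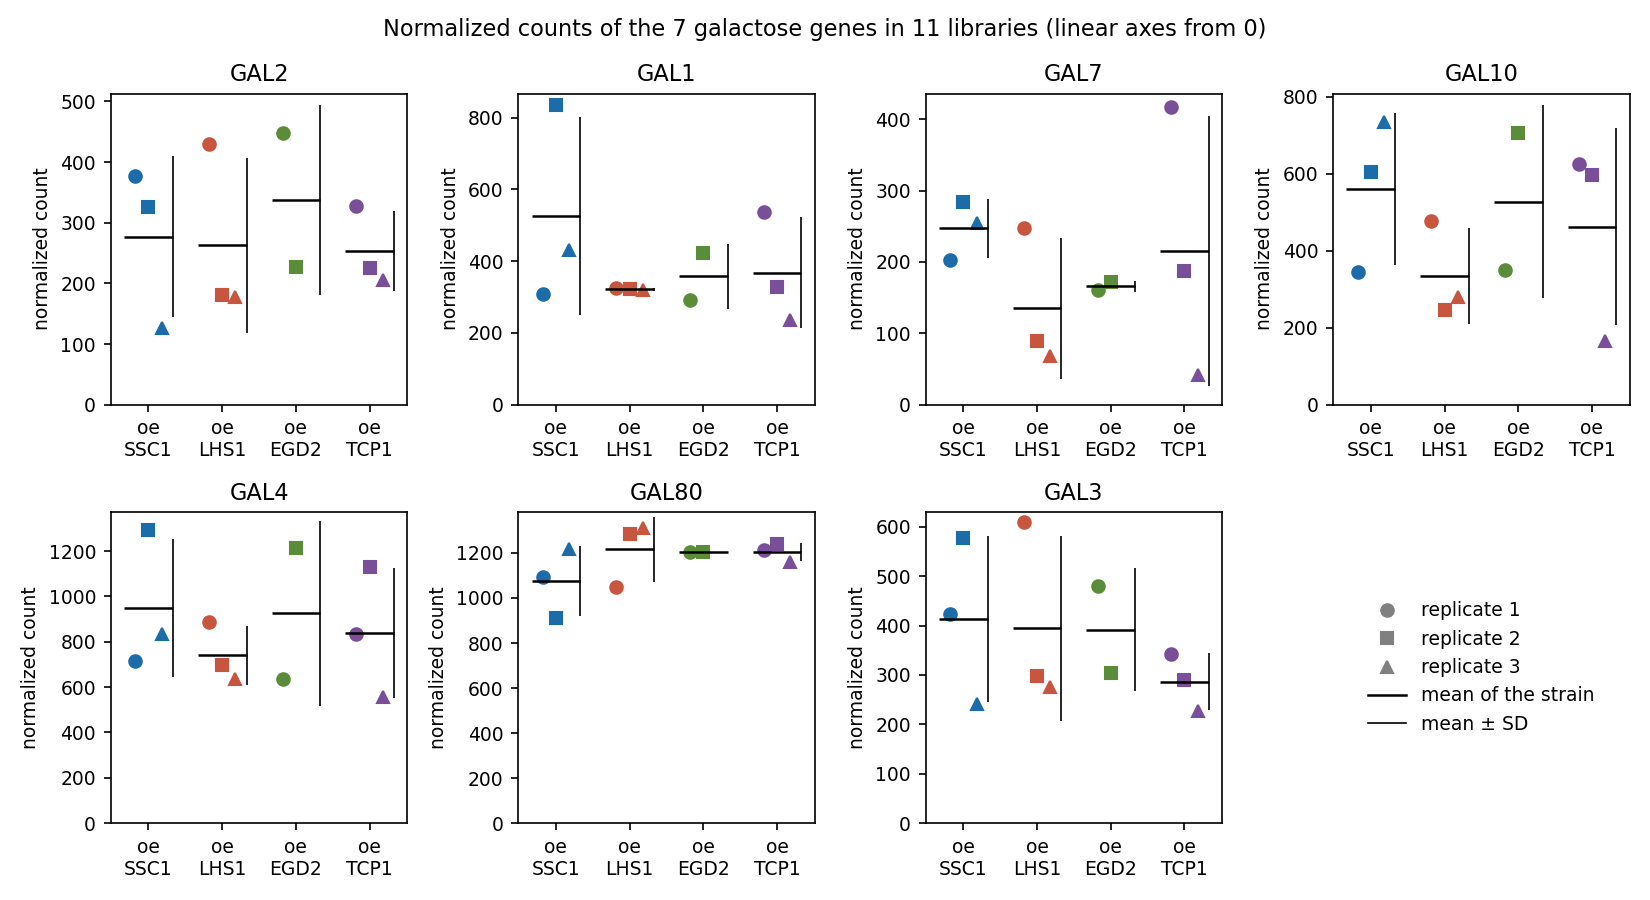
Normalized counts (linear axes from 0) of the 7 galactose genes, with a point for each library by strain, the marker giving the replicate number, a horizontal line at the strain's mean and a vertical line of 1 SD to either side. The libraries of a strain lie far apart for GAL7 (42.0 to 417 in oe TCP1) and close together for GAL80 (909 to 1311 over all strains).

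Among neighbours in the order per kilobase, GAL80 alone stood above the next member in every library. GAL80 exceeded GAL4 in all 11 libraries, by 1.51 ± 0.49 (log2 ratio per kilobase, SD, n = 11). GAL4 exceeded GAL10 in 10 of 11, by 0.64 ± 0.44. GAL10 and GAL1, next in order by their medians, did not differ beyond their spread: GAL10 was the higher in 4 of 11 libraries and the mean log2 ratio was -0.22 ± 0.51. GAL1 exceeded GAL3 in 8 of 11 (0.07 ± 0.56), GAL3 exceeded GAL7 in 9 of 11 (0.61 ± 0.83), and GAL7 exceeded GAL2 in 5 of 11 (-0.02 ± 0.91). The ratio of activator to repressor transcript, GAL4 over GAL80 per kilobase, was below 1 in every library, from 0.237 to 0.704. GAL2 stood below GAL3 in every library as well, at 0.475 to 0.870 of its level per kilobase.

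The question asked of the strains was whether the galactose genes stood at a different level in any ChES. No galactose gene passed the test in any strain. Each strain was compared with the mean of the other 3 by limma on log2(normalized count + 1), and among the 4 strains by its F test, with Benjamini-Hochberg adjusted p under 0.05 over 6592 genes. Among the 4 strains 0 of 7 members were called, with 0.0455% of all genes called (3 genes). The count was 0 of 7 for oe TCP1, oe LHS1 and the label oe SSC1, with 0.0152% of all genes called in each (1 gene), and 0 of 7 for oe EGD2, with 0% of all genes called (0 genes by limma and by edgeR, 2 by DESeq2; 194 had an unadjusted limma p under 0.05). None of the 7 had an unadjusted limma p under 0.05 in any of these tests. Of all 6592 genes, 37 did among the 4 strains, 24 in oe TCP1, 243 in oe LHS1 and 59 for the label oe SSC1. On the recovered reads, edgeR and DESeq2 also called 0 of 7. With so few calls in the whole table, the members' counts do not set them apart from other genes.

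The largest differences were those of GAL7. Averages here are of normalized counts. The limma difference sets mean log2 values of a strain against the mean of the other 3 strains. The exact permutation test used the strain's mean log2 value minus that of all other libraries. In the libraries labelled oe SSC1 GAL7 averaged 247 ± 41.1 (SD, n = 3) against 173 over the other 8 libraries. Its limma log2 difference was 0.79 with a 95% interval of -0.57 to 2.14 (exact permutation test of 0.81, two-sided p = 0.23). In oe LHS1 it averaged 135 ± 98.4 (SD, n = 3) against 215. The limma log2 difference was -0.66 with an interval of -2.02 to 0.69 (exact permutation test of -0.68, p = 0.327). GAL10 followed, at 333 ± 125 in oe LHS1 (SD, n = 3) against 516 elsewhere. Its limma log2 difference was -0.56 with an interval of -1.56 to 0.44 (exact permutation test of -0.55, p = 0.261). The intervals for GAL7 leave room for differences of several fold in either direction, so at this number of libraries such differences were not detectable. GAL80 was measured far more closely, and its 4 intervals together ran from -0.53 to 0.46.

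**Figure D3:**
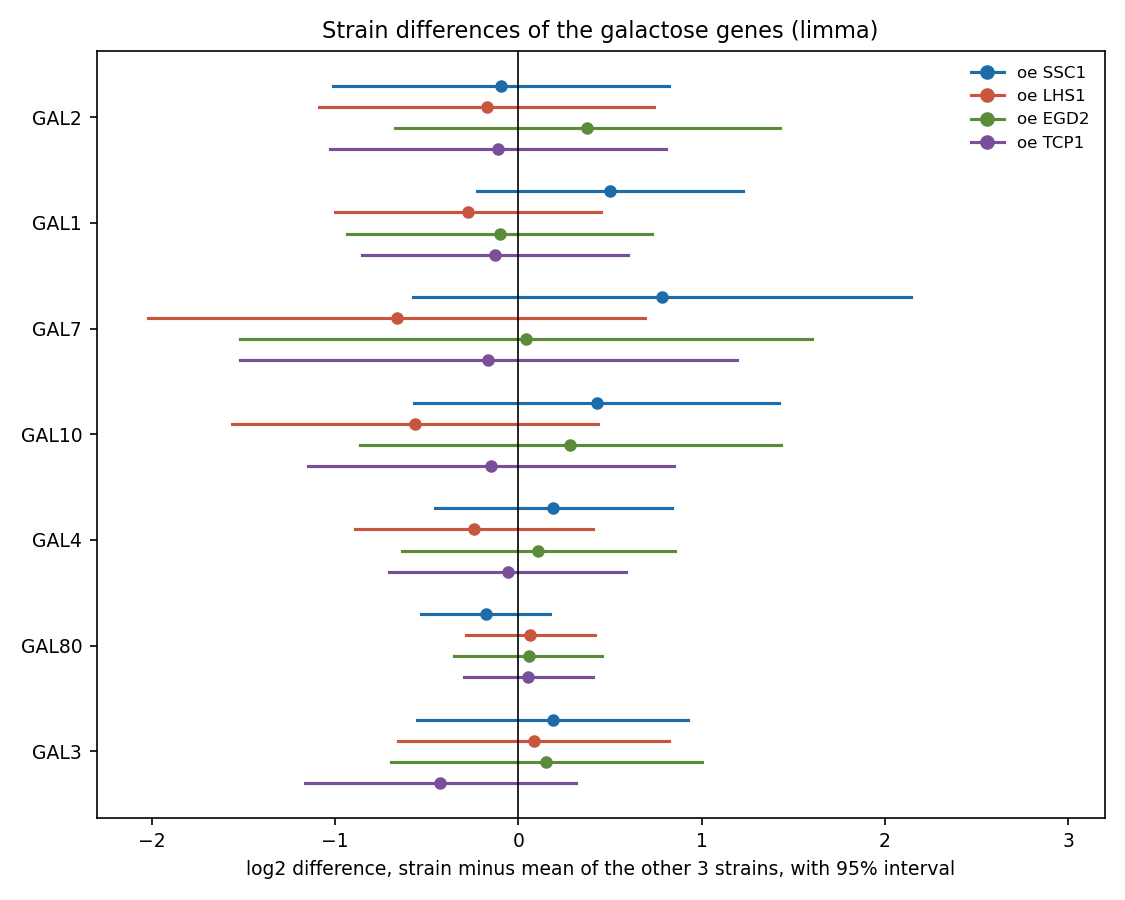
Log2 difference of each galactose gene between a strain and the mean of the other 3 (limma, points) with its 95% interval (lines), coloured by strain. All 28 intervals include 0, from the widest for GAL7 (-2.02 to 2.14 over the strains) to the narrowest for GAL80 (-0.53 to 0.46).

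Of the 28 differences, none left the strain's libraries clear of the others' range. The share of all genes tested that did so was not computed, so this count does not set the members apart. The lowest exact permutation p was 0.0788 (GAL80, 3 libraries labelled oe SSC1 against 8, where the smallest p possible is 0.00606). For oe EGD2, with 2 libraries against 9, the smallest p possible is 0.0182. Between 69.8% (GAL80) and 93.2% (GAL2) of a member's variance over the 11 libraries lay within strains. The median log2 difference over the 7 genes was -0.13 in oe TCP1, 0.11 in oe EGD2, -0.24 in oe LHS1 and 0.19 for the label oe SSC1, beside medians of 0.001, -0.01, 0.01 and 0.01 over all genes tested.

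Some members' levels moved together across libraries, and the pairs that did so did not follow the gene cluster alone. Pearson's r of log2 values was computed for the 21 pairs over 11 libraries, with permutation p-values adjusted over the 21. GAL7 and GAL10 gave r = 0.86 (adjusted permutation p = 0.0094; Spearman's rho 0.76, adjusted p = 0.038), and GAL2 and GAL3, on chromosomes XII and IV, gave r = 0.86 (adjusted permutation p = 0.0098; rho 0.86, adjusted p = 0.02). GAL4 went with GAL10 at r = 0.82 (adjusted permutation p = 0.017; rho 0.75, adjusted p = 0.038) and with GAL1 at r = 0.72 (adjusted permutation p = 0.04; rho 0.83, adjusted p = 0.02). By rank, GAL1 also went with GAL10 (rho 0.83, adjusted permutation p = 0.02; r = 0.69) and GAL7 (rho 0.80, adjusted permutation p = 0.026; r = 0.68). Pairs of GAL2 or GAL3 with one of the other 4 genes ran from r = 0.06 (GAL2 with GAL10, rho 0.05) to r = 0.53 (GAL3 with GAL7, rho 0.50, adjusted permutation p = 0.18), with 0.41 for GAL2 and GAL7, 0.36 for GAL1 and GAL3 and 0.31 for GAL3 and GAL4. None of these 8 passed, and whether they differed from the pairs above was not tested. How many of all gene pairs reach such an r was not computed. For each of GAL1, GAL2, GAL3, GAL4, GAL7 and GAL10, the 3 most alike genes outside the members gave r of 0.92 to 0.97 (listed below). These values were above those of every pair of members. They were picked as the highest of 6263 genes for each member, however. The comparison therefore cannot show whether the pairs set the pathway apart.

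GAL3 and GAL80 gave a negative r of -0.72 (adjusted permutation p = 0.04; rho -0.62, adjusted p = 0.11). Without the 2 libraries farthest from the median of GAL3, replicate 2 labelled oe SSC1 and replicate 1 of oe LHS1, it was -0.33, so its size depends on those libraries. The same step left r at 0.69 for GAL7 and GAL10, 0.78 for GAL2 and GAL3, 0.79 for GAL4 and GAL10 and 0.72 for GAL1 and GAL4. With 9 libraries, none of these 4 passed the adjusted threshold, nor did GAL3 and GAL80, and 1 other pair did (GAL1 and GAL10, r = 0.87, adjusted permutation p = 0.0262). Within strains, after each strain's mean was subtracted, r was 0.84, 0.94, 0.80 and 0.71 for the same 4 pairs and -0.81 for GAL3 and GAL80. None of the 21 pairs passed when permuted only within strains (432 arrangements).

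GAL1, GAL4, GAL7 and GAL10 were low in the libraries where URA3, the plasmid marker, was high. URA3, which encodes an enzyme of uracil synthesis, had normalized counts of 113922 (replicate 1 of oe TCP1) to 367819 (replicate 3 of oe TCP1), with a median of 187255. Over 11 libraries its r was -0.85 with GAL1 (adjusted permutation p = 0.002; rho -0.97, adjusted p = 0.00028), -0.87 with GAL10 (adjusted permutation p = 0.0046; rho -0.84, adjusted p = 0.01), -0.80 with GAL4 (adjusted permutation p = 0.018; rho -0.79, adjusted p = 0.019) and -0.77 with GAL7 (adjusted permutation p = 0.018; rho -0.87, adjusted p = 0.008). The 2 libraries highest in GAL1, replicate 2 labelled oe SSC1 and replicate 1 of oe TCP1, were the 2 lowest in URA3 (114166 and 113922), and the 2 lowest in GAL1 were the 2 highest in URA3 (366015 and 367819). Without the 2 libraries farthest from the median of URA3, r was -0.83, -0.89, -0.68 and -0.79 in the same order of genes. Within strains it was -0.83, -0.91, -0.81 and -0.74.

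No such relation was seen for GAL2 (r = 0.08, rho -0.02), GAL3 (r = -0.16, rho -0.30) or GAL80 (r = 0.32, rho 0.16), whose adjusted permutation p-values were 0.52 or more for r and rho alike. Whether r differed between the members was not tested. As a background, 0.5% of the genes tested had an absolute r with URA3 at least as large as GAL10, 1.2% as GAL1, 3.1% as GAL4 and 4.7% as GAL7. The p-values were adjusted over 14 relations, 7 with URA3 and 7 with the number of reads, and this comparison was chosen after the values had been seen. The number of reads went with GAL7 (r = 0.71, adjusted permutation p = 0.036; rho 0.44, adjusted p = 0.42) and GAL10 (r = 0.71, adjusted permutation p = 0.04; rho 0.62, adjusted p = 0.13), and 27.3% and 28.3% of all genes tested had an absolute r at least as large. Without the 2 libraries farthest from the median in reads, r was 0.70 and 0.57. The part of read number in the levels was not tested.

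**Figure D4:**
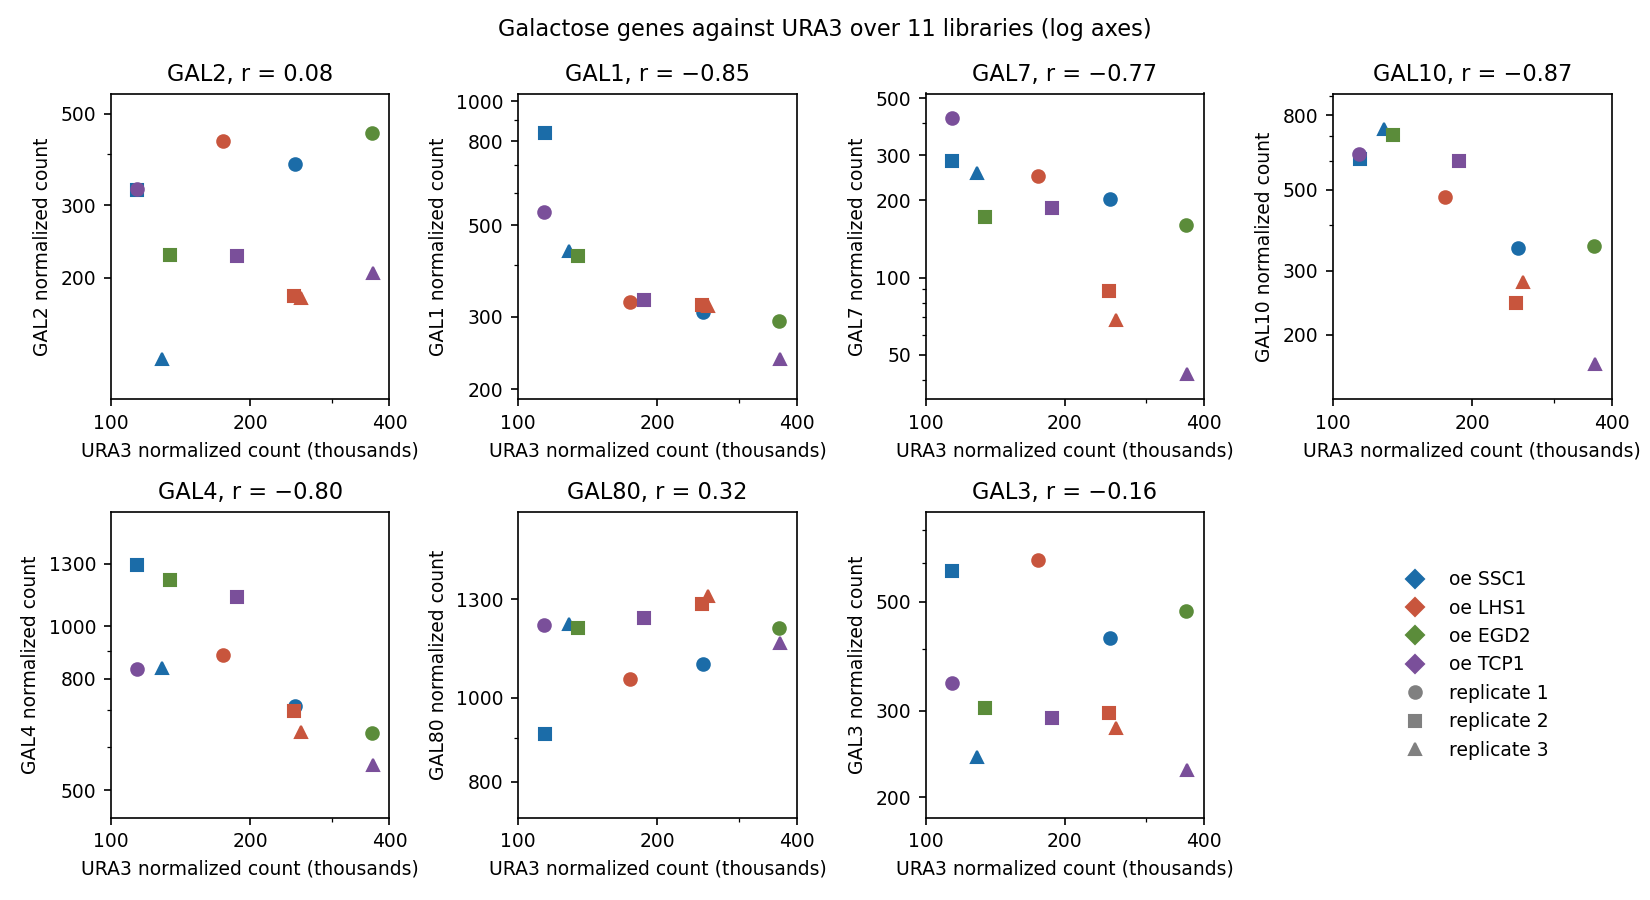
Normalized count of each galactose gene against that of URA3 in 11 libraries, both on log axes, coloured by strain with the marker giving the replicate number and Pearson's r in each title. GAL1, GAL7, GAL10 and GAL4 fall as URA3 rises (r of -0.77 to -0.87), while GAL2, GAL3 and GAL80 show no such slope.

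The chaperone on the plasmid and the chromosomal galactose genes did not share an order of libraries in all strains. For the label oe SSC1, SSC1 and GAL1 both peaked in replicate 2 (82518 and 836). In oe LHS1, LHS1 was lowest in replicate 1 (23647), the library with the strain's highest GAL7 (248) and GAL10 (476). In oe TCP1, TCP1 was highest in replicate 2 (47002), while GAL1 and GAL7 were highest in replicate 1 (538 and 417). The LHS1 transcript was thus 3.77 to 5.12 (log2) above its mean in the other strains in libraries where GAL1 stayed at 318 to 326. With 2 or 3 libraries a strain, no correlation was computed.

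Other genes tied to the pathway were not called either, and some of them varied over a wider range than any member. Only 0% to 0.0455% of all genes were called in a comparison. The counts of 0 here and in the lists that follow thus do not set those genes apart. Of 4 other genes known for Gal4 control, 0 passed in any comparison: GCY1, a glycerol dehydrogenase, ranged from 303 to 6433 normalized counts, PCL10, a cyclin, from 713 to 1693, MTH1, a regulator of glucose sensing, from 651 to 6158, and FUR4, the uracil permease beside GAL1, from 947 to 3109. FUR4 held none of the Gal4 motifs in its window, and the other 3 held 1 each. Of the 3 genes for the sugar phosphate steps after the Leloir enzymes 0 passed. PGM2, the main phosphoglucomutase, spanned 104-fold (606 to 63054), UGP1, which makes UDP-glucose, 13.9-fold (2936 to 40938), and PGM1, the minor phosphoglucomutase, 2.90-fold (817 to 2369).

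Genes of glucose repression and of other sugars gave 0 calls as well. Of 14 glucose repression genes 0 passed, with MIG1 at 1590.1 to 4858, MIG2 at 659 to 3675, MIG3 at 235 to 1172 and NRG1 at 997 to 3094. Of 7 sucrose and maltose genes 0 passed, with SUC2, the invertase, at 1060 to 83045 (78.4-fold), MAL11 at 319 to 1808, MAL12 at 22.4 to 191 and MAL13 at 225 to 937. Reads of MAL12 and its near-identical copy MAL32 may have been split or dropped in counting. Of 7 hexose transporter genes 0 passed, with HXT1 at 3108 to 21380.3, HXT2 at 8308 to 75592, HXT3 at 5055 to 33897 and HXT4 at 3478 to 22601. The other 3, named after their values were seen, varied more widely: HXT5 spanned 47.8-fold, HXT7 44.0-fold and HXT6, a near-identical copy of HXT7 whose reads may have been split or dropped, 203-fold. Of 8 further genes repressed by glucose 0 passed, with ADH2 at 299 to 857, JEN1 at 311 to 4430, ACS1 at 318 to 4997 and ICL1 at 830.1 to 2791 (limma adjusted p as above for all lists). SUC2 and PGM2 followed the first principal component (r = 0.93 and 0.88 over the 11 libraries, a description), GAL10 less (0.67), GAL7 and GAL4 less again (0.51 and 0.42), and GAL1, GAL2, GAL3 and GAL80 hardly (0.001, 0.10, -0.03 and 0.11). The component came from log2 values not scaled per gene, so widely ranging genes such as SUC2 and PGM2 weigh most in it. How all genes correlate with it was not computed.

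The genes at the flanks of the cluster are listed too, with at most 0.0455% of all genes called in a comparison. KAP104, a transport receptor gene after GAL7, ranged from 2085 to 3386 normalized counts, and neither it nor FUR4 was called (0 of 2). A further 3 genes carry a GAL name but are neither enzymes of the pathway nor among the 7: GAL11, a Mediator subunit (2327 to 3789), GAL83, a subunit of the Snf1 kinase (818 to 1315), and GAL6, listed as LAP3 in the annotation, a protease (994 to 6160.2). Of these 0 of 3 passed.

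**Figure D5:**
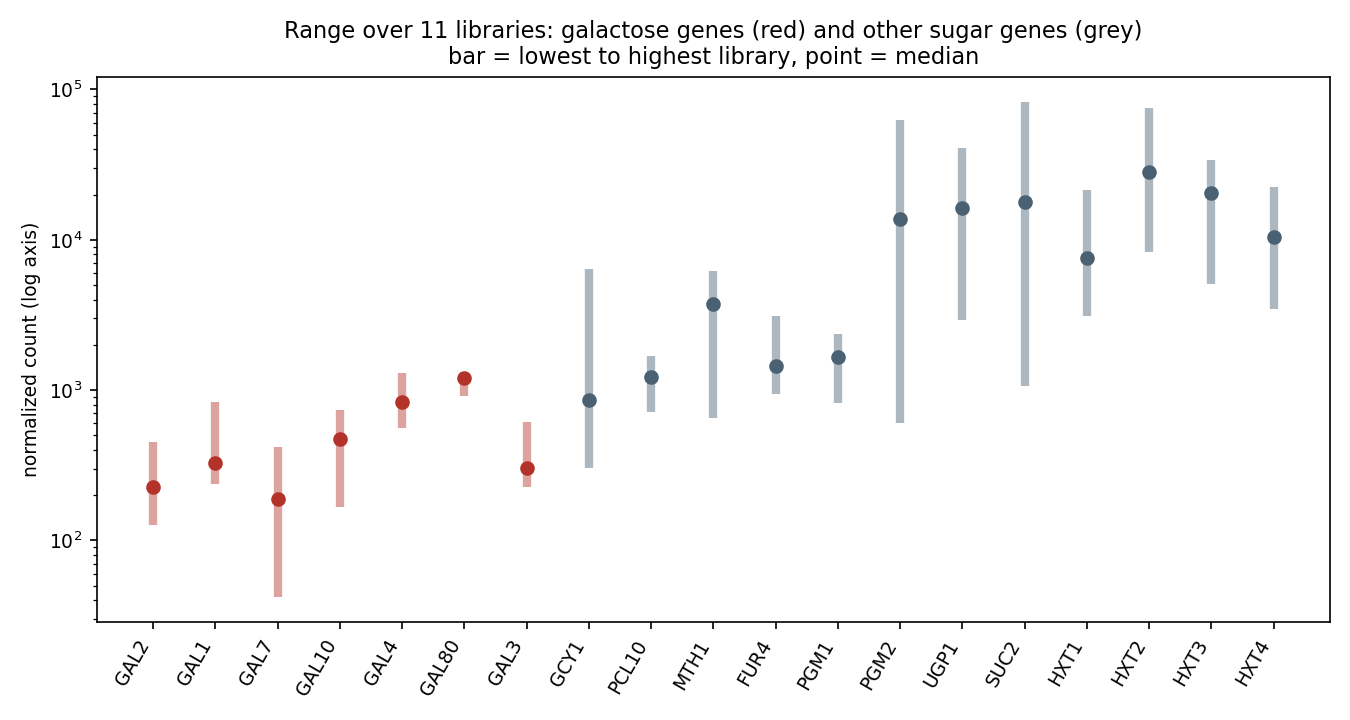
Range of normalized counts over 11 libraries (log axis) for the 7 galactose genes in red and 12 other genes of the lists above in grey. The title calls the grey genes sugar genes, though GCY1, PCL10 and FUR4 among them are listed for Gal4 control. The bar runs from the lowest to the highest library with a point at the median. The galactose genes span 1.44-fold (GAL80) to 9.92-fold (GAL7), against 104-fold for PGM2 and 78.4-fold for SUC2.

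The genes whose levels were most like each member's were found by Pearson's r over the 11 libraries among 6263 other genes with a mean of at least 20, as a description with no test. For GAL1 they were INP52, a phosphoinositide phosphatase (0.95), EDS1 (0.95) and FRE7 (0.95), and for GAL10 they were VTC5, of the vacuolar polyphosphate complex (0.97), TGL3, a lipase (0.96), and ATG7, an autophagy enzyme (0.96). For GAL7 they were YDL218W (0.96), GPP2, a glycerol phosphatase (0.95), and SET3 (0.95), and for GAL4 they were HOS2, a histone deacetylase (0.95), ZNF1 (0.94) and MRX19 (0.94). For GAL2 they were ENT5, an adaptor of vesicle traffic (0.96), CUE3 (0.95) and PPQ1, a phosphatase (0.93), and for GAL3 they were YFL040W (0.94), YOR161C-C (0.92) and YBR284W (0.92). GAL80 had no partner as close, the highest being HHT2, a histone H3 gene with a near-identical copy (0.88), CCW12, a cell wall protein (0.86), and ATP16, an ATP synthase subunit (0.85). No other galactose gene was eligible for these lists, and the pairs among members are given above.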

How the data were processed

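RNA was sequenced as single-end reads of 50 bases. The authors, per the study's methods, used STAR 2.3.0e for alignment to sacCer3. For counting they ran htseq-count 0.6.0 with quality of at least 10 and no strand. Replicates that stood apart in a PCA of rlog values were left out by them before DESeq2, whose version is not given in the sources used here. The deposited signal is thus counts divided by DESeq2 size factors. Whole reads were recovered from it: 100% of values in each library lay within 0.01 of a whole number of reads. Of the lines, 4 were emptied and are not reported here. Of 7122 genes 6045 matched the R64 annotation, which gives coding lengths without untranslated regions. Sequences are from RefSeq, R64.

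The main test was limma 3.58.1 in R 4.3.3 with a mean-variance trend on log2(normalized count + 1), where the pseudocount understates differences of low genes, run on the 6592 genes whose mean reached 5. A single fit held all 11 libraries, and p-values were adjusted by Benjamini-Hochberg. It was tested on simulated data. Exact permutation tests and correlations (100000 resamples) used scipy 1.17.1. Alternatives were a pseudocount of 8, no filter, TMM, edgeR 4.0.16, DESeq2 1.42.0, the replicate number as a block and each library left out. Named are the 7 genes, the chaperones, URA3, up to 4 further genes per list in list order and the 3 genes most like each member. Members and lists were chosen with earlier results of these data known.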

Additional observations from a re-analysis of the deposited data

How the results depend on the processing

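The count of 0 of 7 galactose genes called held in all 5 comparisons under all 17 alternatives, with a lowest adjusted p of 0.259 in them. Once replicate 3 of oe TCP1 was left out, 2 members (GAL7 and GAL10) had an unadjusted limma p under 0.05 in oe LHS1. So did 1228 of all 6600 genes tested there. In the libraries labelled oe SSC1 without their replicate 1, it was 1 member (GAL1), beside 207 of all 6594 genes. These counts do not set the members apart. DESeq2 called 4 genes for oe SSC1, 2 for oe EGD2 and 3 for oe TCP1, none of them a galactose gene, and the cause was not tested. Leaving out a library gave 3 calls among the strains and 1, 1, 0 and 1 in the strains each time. Where this left oe EGD2 with 1 library, that library was assumed to vary like the others.

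Of 196 values of the 28 log2 differences under other settings, 9 changed sign and none became significant. For GAL7 in oe EGD2 these were -0.21 with edgeR and -0.22 with DESeq2, for GAL7 in oe TCP1 0.29 and 0.30, and for GAL10 in oe TCP1 0.006 and 0.015. With the replicate block, the oe EGD2 differences of GAL3, GAL4 and GAL7 were -0.083, -0.037 and -0.37. After each strain's mean was subtracted from the log2 values of all genes, 8 of 15 same-numbered pairs of libraries correlated above 0.1 (-0.58 to 0.642). With 2 or 3 libraries a strain, that step by itself makes libraries of a strain mirror each other. Replicates 1 and 2 of oe EGD2 thus gave -0.642 and 0.642 with replicate 2 of oe TCP1. These r therefore cannot decide whether the numbers mark pairs, and the main fit did not take them as pairs. Between replicate 1 libraries this r was 0.211, 0.223, 0.256, 0.361 and 0.526, and -0.194 for oe LHS1 with oe EGD2. The permutations over 11 libraries treated all libraries as exchangeable, and a part shared by replicate 1 libraries was not tested. What same-numbered libraries share is not stated, and the block gave 0 of 7 members in each comparison.

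Leaving out a library changed the sign of 16 differences. The ranges were -0.36 to 0.16 (GAL1, oe EGD2), -0.44 to 0.15 (GAL1, oe TCP1), -0.39 to 0.40 (GAL2, oe SSC1), -0.59 to 0.041 (GAL2, oe LHS1), -0.11 to 0.86 (GAL2, oe EGD2), -0.31 to 0.053 (GAL2, oe TCP1), -0.10 to 0.53 (GAL3, oe SSC1), -0.28 to 0.29 (GAL3, oe LHS1), -0.18 to 0.48 (GAL3, oe EGD2), -0.056 to 0.37 (GAL4, oe SSC1), -0.36 to 0.57 (GAL4, oe EGD2), -0.30 to 0.21 (GAL4, oe TCP1), -0.26 to 0.29 (GAL7, oe EGD2), -0.90 to 0.74 (GAL7, oe TCP1), -0.22 to 0.79 (GAL10, oe EGD2) and -0.48 to 0.47 (GAL10, oe TCP1).

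Median ranks per kilobase moved by less than 1 SD without any library. Ranks from reads scaled by library total are the same by construction, as each library is scaled by a single factor, so they test nothing. Of the 5 correlated pairs, 0 passed after centring on the strains, where 432 arrangements limit the test, and 0 passed without the 2 farthest libraries, where n was 9 and 1 pair in all passed, GAL1 and GAL10. Without those libraries r turned to -0.35 for GAL1 and GAL2, -0.078 for GAL1 and GAL3, 0.18 for GAL1 and GAL80 and -0.049 for GAL3 and GAL4, and after centring to -0.001 for GAL2 and GAL10. No pair that had passed changed sign.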
